A study of Mus musculus with 4 samples.

Results

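This account covers 10 genes that sense nucleic acid, pass the signal on or edit double-stranded RNA: Ddx58, Ifih1, Dhx58, Mavs, Mb21d1, Tmem173, Tlr3, Zbp1, Eif2ak2 and Adar. They were chosen by symbol from the 78334 gene identifiers of the deposited count table, accepting the names Rigi, Cgas and Sting1 for Ddx58, Mb21d1 and Tmem173, and all 10 were found. Most act in the cytosol, while Tlr3 is a receptor of endosomes. The libraries hold polyadenylated RNA of mouse retinal ganglion cells, which send the axons of the optic nerve. They came from wild-type (WT) mice of both sexes, operated on at 8 to 12 weeks of age, and were collected 2 weeks after optic nerve crush (ONC). At 8 weeks of age and 2 weeks before the crush, eyes had received 2 µl of adeno-associated virus serotype 2 (AAV2), which co-expressed mCherry and either an anti-miR132-3p shRNA (2 libraries) or a scramble shRNA (2 libraries). Both groups therefore share the crush, the injection, the vector and a hairpin RNA, and there is no uninjured or uninjected group among these samples. Each condition was a pool of 10 retinas, from which cells were enriched by Thy1 panning and then by sorting on mCherry, with about 5000 cells per library. About 40% of ganglion cells were transduced, per the series' design text. The strain is not named in the labels. The columns named mCherry were taken as the scramble group by exclusion, since the other columns name miR132 and both vectors express mCherry, and each direction below rests on that.

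Cells detect foreign or misplaced nucleic acid with a small set of proteins. RIG-I (Ddx58) and MDA5 (Ifih1) are RNA helicases that bind double-stranded RNA and signal through the mitochondrial adaptor MAVS, and LGP2 (Dhx58) is a relative without a signalling domain that tunes them. The enzyme cGAS (Mb21d1) binds double-stranded DNA and makes a cyclic dinucleotide that activates STING (Tmem173). Both routes lead to type I interferon, and several of the sensors are themselves interferon-induced genes. PKR (Eif2ak2) is a kinase that stops translation when it binds double-stranded RNA, ZBP1 binds nucleic acid in the Z form, and ADAR converts adenosine to inosine in double-stranded RNA, which keeps the cell's own RNA from being sensed.

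The hairpin inserts are shown with the microRNA they concern because they define the groups. The mature microRNA is the RefSeq sequence (build GRCm38.p6, chromosome 11, plus strand) with its seed, bases 2 to 8, in capitals, and the inserts are as the labels give them, with the complement of the seed in capitals.
mmu-miR-132-3p: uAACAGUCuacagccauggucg
anti-miR132-3p insert: cgaccatggctgtaGACTGTTa
scramble insert: tcgagggcgacttaaccttagg
The anti-miR132-3p insert is the full complement of the microRNA, at 22 of 22 bases, and the scramble insert matches that complement at 5 of 22 positions. Mature microRNA is not measured in libraries of this kind.

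The promoter windows of the 3 sensor genes that were more than 2-fold higher, of Adar and, for contrast, of Mavs are shown because the members that differed between the groups can be set beside those that did not. They are RefSeq sequences of build GRCm38.p6, from 250 bases before to 50 bases after the annotated start, in the gene's own direction. Capitals mark matches, on either strand, to AANNGAAA, the core bound by interferon regulatory factors (IRFs), or to the interferon-stimulated response element (ISRE), searched as 2 copies of GAAA with any 2 bases between them, which contains that core.
Ifih1, chr2:62646206-62646505, minus strand: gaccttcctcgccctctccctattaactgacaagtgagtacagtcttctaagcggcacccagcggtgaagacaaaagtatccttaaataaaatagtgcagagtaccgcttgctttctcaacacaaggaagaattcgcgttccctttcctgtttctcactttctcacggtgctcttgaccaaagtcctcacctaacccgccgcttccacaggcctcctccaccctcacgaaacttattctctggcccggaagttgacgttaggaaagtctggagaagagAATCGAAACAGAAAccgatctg
Ddx58, chr4:40239776-40240075, minus strand: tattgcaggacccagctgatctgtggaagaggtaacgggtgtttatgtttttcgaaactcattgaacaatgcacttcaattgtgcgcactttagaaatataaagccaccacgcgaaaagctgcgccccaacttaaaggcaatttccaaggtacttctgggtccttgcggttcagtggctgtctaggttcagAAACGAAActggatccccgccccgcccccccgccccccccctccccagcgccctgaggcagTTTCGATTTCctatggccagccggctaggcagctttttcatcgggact
Eif2ak2, chr17:78882523-78882822, minus strand: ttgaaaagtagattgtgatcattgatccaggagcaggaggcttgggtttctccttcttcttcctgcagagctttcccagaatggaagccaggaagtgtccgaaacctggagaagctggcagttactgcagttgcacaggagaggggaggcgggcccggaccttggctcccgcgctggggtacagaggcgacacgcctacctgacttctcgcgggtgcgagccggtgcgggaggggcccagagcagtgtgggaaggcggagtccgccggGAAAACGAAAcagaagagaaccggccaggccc
Adar, start 3 of 3, chr3:89730468-89730767, plus strand: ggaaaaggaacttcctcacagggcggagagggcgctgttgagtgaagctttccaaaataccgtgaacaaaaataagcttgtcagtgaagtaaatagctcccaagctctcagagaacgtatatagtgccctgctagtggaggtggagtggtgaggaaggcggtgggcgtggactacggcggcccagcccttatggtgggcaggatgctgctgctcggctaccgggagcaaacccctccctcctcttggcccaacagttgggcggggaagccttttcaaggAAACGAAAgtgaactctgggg
Mavs, chr2:131233813-131234112, plus strand: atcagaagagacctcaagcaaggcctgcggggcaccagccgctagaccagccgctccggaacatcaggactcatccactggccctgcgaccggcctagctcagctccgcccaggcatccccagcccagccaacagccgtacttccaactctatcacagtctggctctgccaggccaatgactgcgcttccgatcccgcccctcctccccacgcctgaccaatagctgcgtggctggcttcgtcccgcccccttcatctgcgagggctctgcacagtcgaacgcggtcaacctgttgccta

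Windows of 7 of the 10 members were examined, 9 windows in all. Dhx58, Tmem173 and Zbp1 are not among them, so of the countable members that did not separate the groups Mavs alone stands for contrast. The ISRE letters were found in Ifih1, Ddx58 and Eif2ak2, against 3.44% of all 32851 promoter windows of the same length. AANNGAAA was found in those 3 genes, in the third start of Adar and in Tlr3, against 23.9% of all windows. Neither motif was in the windows of Mavs or Mb21d1 or at the other 2 Adar starts. In Ifih1 the first core match began 28 bases after the annotated start and overlapped a second, in Eif2ak2 it began 20 bases after the start, and in Ddx58 the 2 matches lay 59 bases before the start and 2 bases after it. A match describes letters and not binding, and these motifs were chosen after the windows had been read.

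Library totals were 1732416 and 1731199 counts in the anti-miR132-3p group, against 1845090 and 1846637 counts in the scramble group. Libraries of a group differed by no more than sampling noise: the chi-square over genes, divided by its degrees of freedom, was 1.00 for the anti-miR132-3p pair and 1.02 for the scramble pair, beside 4.01 to 4.03 for pairs across groups. So each pair was counted as 1 sample and no SD can be given. Statements below that the libraries of the groups did not overlap, or were close or spread, only describe counts. The share of all genes whose libraries separate in this way was not computed. Levels are in CPM, counts scaled to a common library size with TMM, a trimmed mean of ratios. Ratios compare the summed counts of a pair, with exact 95% (Clopper-Pearson) intervals that cover counting error only, and a p-value sets these libraries' reads against each other rather than the conditions. A count of 3 over a pair, set here as the limit for a gene at 0 counts, corresponds to 0.870 CPM in the anti-miR132-3p group and 0.831 CPM in the scramble group. The exact Poisson 95% interval of 0 counts ends higher, at 1.07 CPM in the anti-miR132-3p group and 1.02 CPM in the scramble group. All 16 ganglion cell markers examined, led by Gap43 and Nefl, had counts and together held 3766 CPM in the anti-miR132-3p group and 4011 CPM in the scramble group. Markers of amacrine cells, led by Pax6, held 4282 CPM in the anti-miR132-3p group and 3144 CPM in the scramble group, with 9 of 12 detected.

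The sensors were sparse, and a few of them were higher with the anti-miR132-3p shRNA. The 10 genes together held 226 counts in the anti-miR132-3p group and 108 in the scramble group, 65.6 and 29.9 CPM, a ratio of 2.19 (1.74 to 2.78). The difference lay in Ifih1, Ddx58, Eif2ak2 and Adar. The other 6 genes, Dhx58, Mavs, Mb21d1, Tmem173, Tlr3 and Zbp1, held 26 counts in the anti-miR132-3p group and 24 in the scramble group, a ratio of 1.13 (0.626 to 2.06). In bulk libraries fewer cells of a type and less RNA per cell cannot be told apart.

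**Figure D1:**
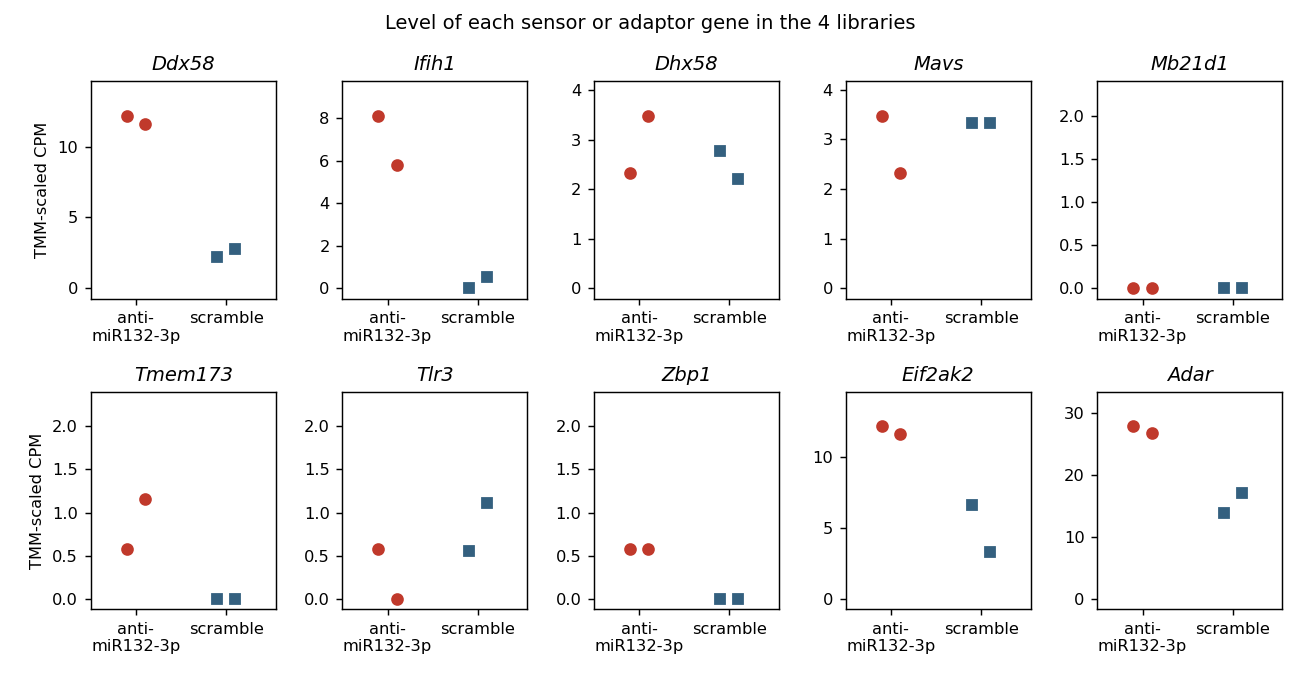
Level of each of the 10 genes in TMM-scaled CPM (vertical axis, a separate scale per gene) in the 2 anti-miR132-3p libraries (circles) and the 2 scramble libraries (squares). Both anti-miR132-3p libraries lie above both scramble libraries for Ddx58, Ifih1, Eif2ak2 and Adar. The same holds near the limit of detection for Tmem173 (1 and 2 counts against 0 and 0) and Zbp1 (1 and 1 against 0 and 0). The groups overlap for Dhx58, Mavs and Tlr3, and Mb21d1 is at 0 in all 4. The share of all genes whose libraries separate in this way was not computed.

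Among the RNA helicases, Ifih1 differed most. Ifih1, on chromosome 2, had 14 and 10 counts in the anti-miR132-3p libraries, against 0 and 1 in the scramble libraries. The gene was close to absent from the scramble group, at 0.277 CPM, and stood at 6.96 CPM in the anti-miR132-3p group. The ratio was 25.1 (4.10 to 1033), and its wide upper end reflects the single scramble count. By edgeR's quasi-likelihood test with Benjamini-Hochberg adjustment over all genes, the log2 fold change was 4.34 (adjusted p = 0.000459). Ifih1 passed the low-count filter only through the anti-miR132-3p libraries, so that p is not independent of the difference, and without the filter the call was lost (adjusted p = 0.0851). Without scramble replicate 1 the ratio was 12.6, and without scramble replicate 2 no scramble count remained.

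Ddx58, which encodes RIG-I and lies on chromosome 4, had 21 and 20 counts in the anti-miR132-3p libraries, against 4 and 5 in the scramble libraries. The groups did not overlap, and the libraries within each group were close. Its level was 11.9 CPM in the anti-miR132-3p group and 2.49 CPM in the scramble group, a ratio of 4.77 (2.28 to 11.2). The edgeR log2 fold change was 2.22 (quasi-likelihood test, adjusted p = 0.000759). Ddx58, too, passed the filter only through the anti-miR132-3p libraries, and without the filter the call was lost (adjusted p = 0.0765).

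Dhx58 and Mavs, a regulator of these receptors and their adaptor, did not separate the groups. Dhx58, on chromosome 11, had 4 and 6 counts in the anti-miR132-3p libraries, against 5 and 4 in the scramble libraries, a ratio of 1.16 (0.425 to 3.24). Mavs, on chromosome 2, had 6 and 4 counts in the anti-miR132-3p libraries, against 6 and 6 in the scramble libraries, a ratio of 0.873 (0.338 to 2.20). The libraries overlapped for both genes, and at these counts the intervals leave room for changes of more than 2-fold in either direction. The lower end for Ifih1, 4.10, lay above the upper ends for Dhx58 and Mavs, and the lower end for Ddx58, 2.28, lay above that for Mavs but not that for Dhx58.

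Eif2ak2 and Adar, which act on double-stranded RNA without MAVS, were higher by smaller ratios. Eif2ak2, the PKR gene on chromosome 17, had 21 and 20 counts in the anti-miR132-3p libraries, against 12 and 6 in the scramble libraries. The anti-miR132-3p libraries were alike, whereas the scramble libraries were spread, and the groups did not overlap. Its level was 11.9 CPM in the anti-miR132-3p group and 4.99 CPM in the scramble group, a ratio of 2.39 (1.34 to 4.41), with an edgeR log2 fold change of 1.24 (quasi-likelihood test, adjusted p = 0.0221, or 0.171 without the filter). Without scramble replicate 1 the ratio was 3.58, and without scramble replicate 2 it was 1.79.

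Adar, on chromosome 3, was the most counted of the 10. It had 48 and 46 counts in the anti-miR132-3p libraries, against 25 and 31 in the scramble libraries. The groups did not overlap, at 27.3 CPM in the anti-miR132-3p group and 15.5 CPM in the scramble group, and the ratio was 1.76 (1.25 to 2.49), with an edgeR log2 fold change of 0.81 (quasi-likelihood test, adjusted p = 0.0165, or 0.102 without the filter). After a correction for GC content and transcript length the ratio was 1.47 (1.05 to 2.09) and the call was lost (adjusted p = 0.0984). Gene counts do not separate the interferon-inducible long form of the enzyme from the constitutive short one. Adar also overlaps Chrnb2, a nicotinic receptor subunit gene on the opposite strand, by 1365 exonic bases in GENCODE M21. Chrnb2 had 157 and 164 counts in the anti-miR132-3p libraries, against 83 and 102 in the scramble libraries, a ratio of 1.82 (1.51 to 2.19). Whether the counting used strand is not stated in the labels, so reads of the 2 genes in the shared bases cannot be told apart. Without Adar, the other 9 genes together had a ratio of 2.66 (1.92 to 3.74).

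**Figure D2:**
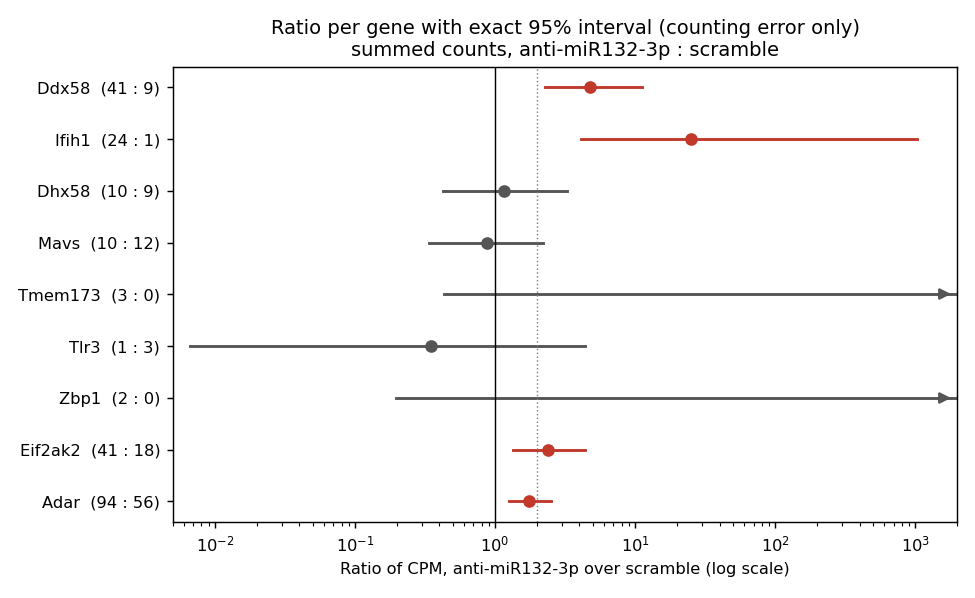
Ratio of CPM, anti-miR132-3p over scramble, on a log axis for the 9 genes with any count, with exact 95% intervals (lines) and the summed counts of each group in brackets; arrows mark genes with 0 scramble counts, and the dotted line marks 2-fold. The intervals of Ddx58, Ifih1, Eif2ak2 and Adar lie above 1, and those of the other 5 genes include 1.

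The DNA-sensing pair was at or near the limit of detection. Mb21d1, the cGAS gene on chromosome 9, had 0 counts in all 4 libraries, which allows up to 0.870 CPM in the anti-miR132-3p group and 0.831 CPM in the scramble group. Tmem173, the STING gene on chromosome 18, had 1 and 2 counts in the anti-miR132-3p libraries, against 0 and 0 in the scramble libraries. No ratio is given, since both groups are at or under 3 counts.

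Tlr3 and Zbp1 were equally sparse. Tlr3, the endosomal receptor for double-stranded RNA on chromosome 8, had 1 and 0 counts in the anti-miR132-3p libraries, against 1 and 2 in the scramble libraries. Zbp1, on chromosome 2, had 1 and 1 counts in the anti-miR132-3p libraries, against 0 and 0 in the scramble libraries. A difference in these genes was not detectable at this depth.

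Per length, Adar had the highest level in both groups, and the order below it differed. Levels here are CPM per kilobase of merged exons in GENCODE M21, with exact Poisson 95% intervals. In the anti-miR132-3p group Adar stood first at 3.36 (2.71 to 4.11), then Eif2ak2 at 2.33 (1.67 to 3.16), Ddx58 at 1.69 (1.21 to 2.29), Dhx58 at 0.887, Mavs at 0.867 and Ifih1 at 0.853 (0.546 to 1.27). In the scramble group Adar was at 1.91 (1.44 to 2.48), then Mavs at 0.994, Eif2ak2 at 0.975, Dhx58 at 0.762, Ddx58 at 0.354 (0.162 to 0.671), Tlr3 at 0.160 and Ifih1 at 0.0339 (0.000859 to 0.189). Within either group the intervals of neighbours in the order overlapped, and differences between neighbours were not tested. Intervals further apart in the order were separate, such as those of Adar and Ddx58 in either group. Mb21d1, Tmem173 and Zbp1 had no counts in the scramble group.

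**Figure D3:**
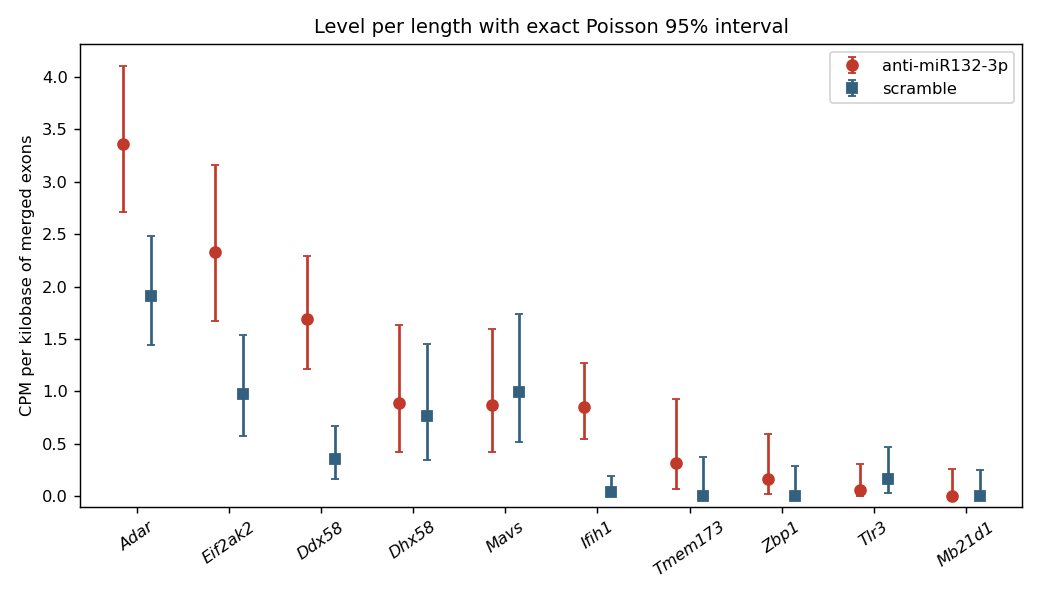
Level per length (CPM per kilobase of merged exons) of the 10 genes in the anti-miR132-3p group (circles) and the scramble group (squares), with exact Poisson 95% intervals, ordered by the anti-miR132-3p level. Ifih1 stands at 0.853 with the anti-miR132-3p shRNA and at 0.0339 with the scramble shRNA, whereas Dhx58 and Mavs have overlapping intervals.

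Of the 10 genes, 4 passed the low-count filter, and edgeR's quasi-likelihood test called all 4 higher, beside 13.5% of the 11427 genes tested. It called 0 lower, with 0 at an unadjusted p under 0.05, beside 10.4% of all genes. Ifih1 and Ddx58 reached the filter's minimum only in the anti-miR132-3p libraries, and Eif2ak2 reached it in 1 of the 2 scramble libraries, so passing the filter already favoured a difference and the count of 4 is no support for one. With DESeq2's Wald test 0 of the 4 were called. Adar then had an adjusted p of 0.251, and the other 3 received none. A ratio of at least 2 with an interval that leaves out 1 was reached by Ifih1, Ddx58 and Eif2ak2, 3 of the 10, against 3.06% of the 23361 genes with any count, and 0 of the 10 met the same rule in the lower direction, against 1.3%. Over the genes that passed the filter these shares were 4.24% and 0.919%. Among 4109 filtered genes whose summed counts lay between those of Ifih1 and Adar, a range chosen after the values were seen, 8.76% were past 2-fold higher.

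**Figure D4:**
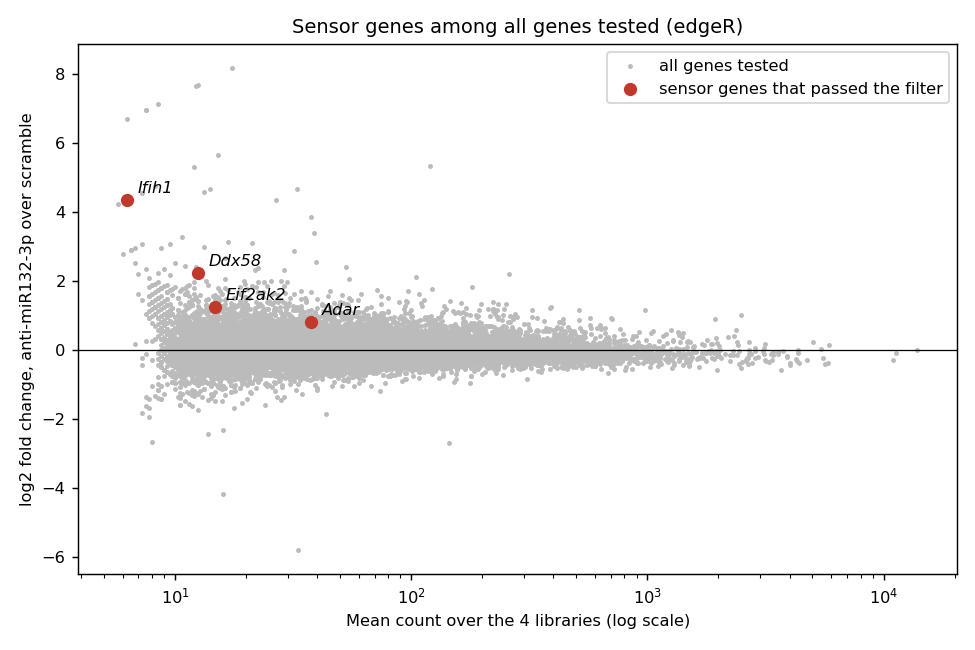
The edgeR log2 fold change, anti-miR132-3p over scramble, against the mean count over the 4 libraries (log axis) for the 11427 genes tested (grey) and the 4 sensor genes that passed the filter (red). Ifih1 (4.34) and Ddx58 (2.22) lie at the upper edge of genes of like count, and Adar (0.81) lies inside the cloud.

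Levels of markers of other cell types are given here beside these genes. Of 22 microglia markers 17 had counts, and the whole list stood at 79.8 CPM in the anti-miR132-3p group (70.2 and 89.4 by library) and 64.0 CPM in the scramble group (67.1 and 60.9). Itgam, Trem2, Siglech, Fcrls and Sall1 were at 0 in all 4 libraries. Single markers moved in different directions. C1qb, a complement gene of microglia, had 10 and 7 counts in the anti-miR132-3p libraries, against 0 and 0 in the scramble libraries. Csf1r, the receptor that microglia need to survive, had 6 and 7 counts in the anti-miR132-3p libraries, against 1 and 1 in the scramble libraries. Cd68, a lysosomal gene of phagocytes, had 16 counts in the anti-miR132-3p group and 42 in the scramble group. Of 21 markers of other leukocytes 11 had counts, at 64.4 CPM in the anti-miR132-3p group (61.5 and 67.3 by library) and 7.76 CPM in the scramble group (8.88 and 6.64), led by Cd74 with 126 counts in the anti-miR132-3p group and 5 in the scramble group and H2-Ab1 with 47 and 6. Cd74 and the class II genes, which present antigen, held 57.7 CPM of that in the anti-miR132-3p group and 4.43 CPM in the scramble group. The other 17 leukocyte markers stood at 6.67 and 3.32 CPM, a ratio of 2.01 whose interval (0.958 to 4.43) includes 1. Müller glia markers stood at 2442 CPM in the anti-miR132-3p group and 1888 CPM in the scramble group, a difference carried by Dkk3. The other 15, a subset made after the values were seen, had 2841 counts in the anti-miR132-3p group and 2860 in the scramble group. Rod markers, led by Sag, were lower, at 28.7 CPM in the anti-miR132-3p group and 106 CPM in the scramble group. Endothelial and mural markers stood at 50.5 and 41.3 CPM, a ratio of 1.22 whose interval (0.977 to 1.53) includes 1. Most of these counts were of Rgs5, with 127 in the anti-miR132-3p group and 132 in the scramble group. Flt1, the next most counted marker of that list, had 11 and 10 counts in the anti-miR132-3p libraries, against 1 and 2 in the scramble libraries. The Flt1 ratio was 7.33 (2.19 to 38.4). Microglia and other leukocytes also express these sensors, and the part of such cells in the differences of Ifih1, Ddx58, Eif2ak2 and Adar was not tested.

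Outside the 10 members, the wider nucleic acid sensing machinery was mostly present. Of 152 other genes listed, 96 passed the filter, of which 11 were called higher and 9 lower by edgeR's quasi-likelihood test, 11.5% higher beside 13.5% of all genes tested. The median log2 fold change was 0.06, beside -0.003 over all genes. By the rule on ratios and their intervals, which takes in genes outside the filter, 10 of the 136 with any count were past 2-fold higher and 2 lower, against 3.06% and 1.3% of all genes with any count. Summed over a list, the 2-5A synthetases and RNase L had a ratio of 1.23 (1.12 to 1.36) and the editing family 1.49 (1.38 to 1.62). The first of these lists also holds Abce1, which is not a synthetase and made up most of the sum. Abce1 had 521 counts in the anti-miR132-3p group and 588 in the scramble group, whereas Oasl2 had 174 and 44. So that ratio does not describe the synthetases alone. Without the low-count filter, where 5192 of all genes had an unadjusted p under 0.05, edgeR called 0 of these genes in either direction, and DESeq2's Wald test with the filter called 7 higher and 1 lower.

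In signalling downstream of RIG-I and MDA5, 1 of 17 tested genes was called higher and 3 lower. Irf3, the transcription factor that MAVS, STING and TLR3 signalling activates, had 15 and 20 counts in the anti-miR132-3p libraries, against 35 and 43 in the scramble libraries. The groups did not overlap, and the ratio was 0.470 (0.306 to 0.709), with a log2 fold change of -1.08 (edgeR, adjusted p = 0.00905). With DESeq2's Wald test Irf3 was not called (adjusted p = 0.159). Tbk1, the kinase that phosphorylates IRF3, was not called, at 195 and 192 counts in the anti-miR132-3p group, against 211 and 221 in the scramble group. G3bp1, a stress granule protein and the most counted uncalled gene of this list, had a ratio of 0.989 (0.881 to 1.11). Of 9 tested genes that restrain the pathway 1 was called higher and 1 lower. The higher one was Usp18, known mainly as the protease that removes ISG15. It had 49 and 53 counts in the anti-miR132-3p libraries, against 3 and 2 in the scramble libraries. Usp18 reached the filter's minimum only in the anti-miR132-3p libraries, so its call is not independent of the difference. Without the filter the call was lost (edgeR's quasi-likelihood test, adjusted p = 0.0573). Cyld, a deubiquitinase, had a ratio of 1.06 (0.919 to 1.22).

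Around cGAS and STING, 3 of 21 tested genes were called higher and 2 lower. Enpp1, the enzyme that hydrolyses the cGAS product, had 8 and 12 counts in the anti-miR132-3p libraries, against 19 and 25 in the scramble libraries, a ratio of 0.476 (0.266 to 0.825). Its log2 fold change was -1.06 (edgeR, adjusted p = 0.0373). That call was lost with scaling by library totals (adjusted p = 0.0525), with limma-voom (0.0503) and with DESeq2's Wald test (0.374). Sar1a, a GTPase of vesicle export from the endoplasmic reticulum, was not called, with a ratio of 0.904 (0.823 to 0.993). Of the other DNA sensors and inflammasome genes 1 of 11 was called higher and 1 lower, and Lrrfip1 had a ratio of 1.11 (0.912 to 1.34). Ifi204, a mouse DNA sensor of the PYHIN family named here after its values were seen, did not pass the filter and had 7 and 6 counts in the anti-miR132-3p libraries, against 0 and 0 in the scramble libraries. The exact interval of the Ifi204 ratio begins at 3.19.

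Of the endosomal toll-like receptor list 0 of 5 tested genes were called by edgeR (0 at an unadjusted p under 0.05), and Tlr7, Tlr8 and Tlr9 had 0 counts in all libraries. Pld3, an exonuclease of lysosomes, had a ratio of 1.04 (0.971 to 1.11). With the correction for GC content and length Pld3 turned to a log2 fold change of -0.15 and was called lower (edgeR, adjusted p = 0.0213). Of the nucleases 1 of 11 was called higher and 0 lower, and Exosc10 had a ratio of 1.01 (0.870 to 1.18). The 2-5A synthetases are enzymes that bind double-stranded RNA and activate RNase L. Their list also holds RNase L and Abce1, and 1 of its 4 tested genes was called. This was Oasl2, with 96 and 78 counts in the anti-miR132-3p libraries, against 16 and 28 in the scramble libraries, a ratio of 4.14 (2.96 to 5.90). Abce1, an inhibitor of RNase L, had a ratio of 0.928 (0.823 to 1.05).

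In the PKR axis 1 of 15 genes was called higher and 2 lower. The other eIF2 alpha kinases, relatives of PKR, were Eif2ak1 with a ratio of 1.22 (0.956 to 1.56), Eif2ak3 with 0.809 (0.550 to 1.18) and Eif2ak4, which was called higher with 1.86 (1.40 to 2.50). In the editing family, Adarb2, a brain-enriched relative of ADAR that lacks known deaminase activity, had 320 and 322 counts in the anti-miR132-3p libraries, against 173 and 161 in the scramble libraries. The ratio for Adarb2 was 2.01 (1.76 to 2.30), with a log2 fold change of 1.01 (edgeR, adjusted p = 3.69e-07). Adarb1, the second active editing enzyme, was called higher with a ratio of 1.31 (1.18 to 1.46), and Adat1, a deaminase of transfer RNA, was not called at 0.698 (0.425 to 1.13). In the necroptosis list next to ZBP1, 1 gene was tested, Tnfaip3, at 1.30 (0.702 to 2.42), and Ripk3 had 0 counts in all libraries.

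**Figure D5:**
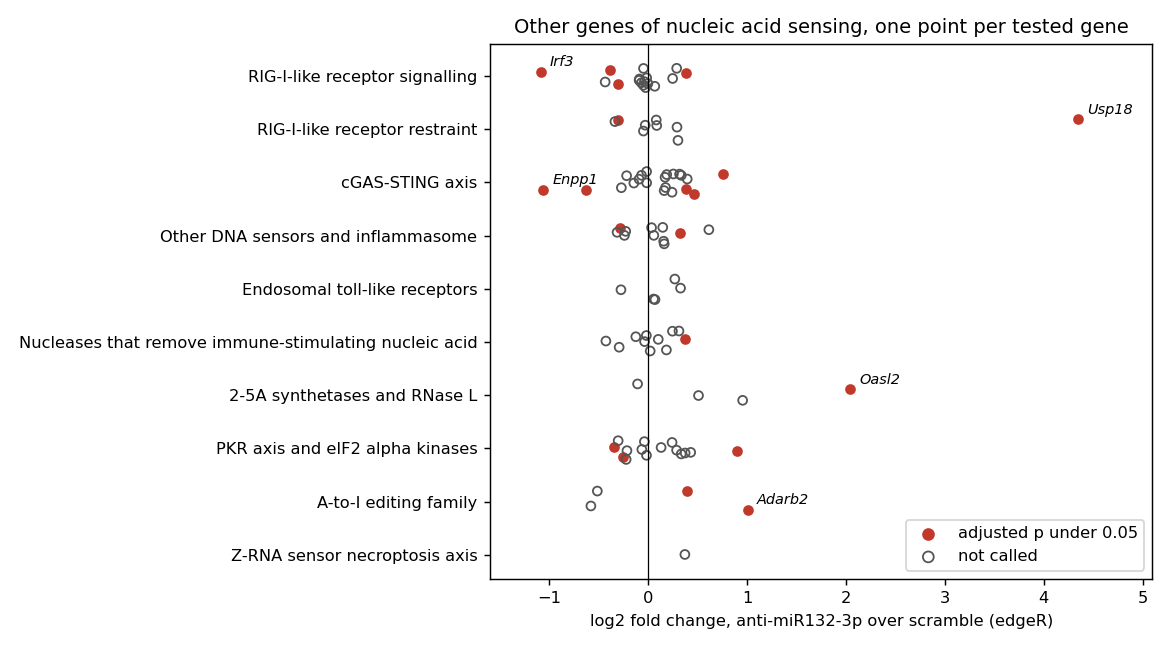
The edgeR log2 fold change, anti-miR132-3p over scramble, of each tested gene in 10 lists of nucleic acid sensing genes; filled points have an adjusted p under 0.05, and called genes changed at least 2-fold are named. Usp18, Oasl2 and Adarb2 stand to the right, Irf3 and Enpp1 to the left, and most points lie near 0.

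The interferons themselves were not detected. All 9 interferon ligand genes examined, Ifnb1 and Ifng among them, had 0 counts in the 4 libraries. The limit set at 3 counts over a pair is 0.870 CPM in the anti-miR132-3p group and 0.831 CPM in the scramble group. The receptor gene Ifnar1 had 113 and 98 counts in the anti-miR132-3p libraries, against 88 and 105 in the scramble libraries, a ratio of 1.15 (0.937 to 1.40).

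Matches to the miR-132-3p seed were sought in the longest annotated 3' UTR of each member in GENCODE M21, as GACTGTT on the transcript's strand. Ifih1 and Tlr3 had 1 match each and the other 8 genes 0, while 14.7% of the 10405 tested genes with a 3' UTR had at least 1. The Ifih1 match began at base 1055 of 2111, and the Tlr3 match at base 153 of 1496. Both are shown with 10 bases on either side and the match in capitals, because Ifih1 is the member with the highest ratio and Tlr3 carries the 8-base form, GACTGTTA.
Ifih1 site: gtttcagccaGACTGTTctgatccaaa
Tlr3 site: ataatttttaGACTGTTaggcttttaa
Ddx58, Eif2ak2 and Adar had no match in that window.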

How the data were processed

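The deposited table holds whole-number read counts per versioned Ensembl gene identifier in 4 columns, which the authors made with Trimmomatic 0.39, HISAT2 2.2.1, SAMtools 1.10 and the Cufflinks tools on mouse build GRCm39, per the submitters' processing notes. The counter, the annotation release and whether strand was used: not given in the sources used here. Symbols came from GENCODE M21 by identifier (51486 matched). That release is of an older build than the counts. Chromosomes, exon lengths, 3' UTRs and gene overlaps given here are those of GENCODE M21, and promoters are RefSeq GRCm38.p6.

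The analysis ran in R 4.3.3, with edgeR 4.0.16 (filterByExpr, TMM, glmQLFit with legacy set to FALSE, glmQLFTest, Benjamini-Hochberg over all 11427 genes that passed, threshold 0.05), limma 3.58.1 and DESeq2 1.42.0, and tested on simulated counts. Libraries of a group were compared by a chi-square test over genes, and each pair counted as 1 sample. Nothing in the labels says that they came from separate animals. The same-numbered libraries did not deviate together (correlation 0.0126), so the numbers share only a label.

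The members, gene lists and markers were chosen with earlier results of these data known. Named were all members, called genes changed at least 2-fold (up to 4 per list), the most counted uncalled gene of each list and leading markers; Tbk1, Ifi204, the eIF2 alpha kinases, Adarb1, Ripk3, Chrnb2, Cd68, C1qb, Csf1r, the genes at 0 and the interferon genes were named after their values were seen. Some genes that this rule names are not reported here. Alternatives covered scaling, filters, tests, thresholds, left-out libraries, a replicate block, summed pairs with an assumed spread, and GC content and length (spline fits, 4 degrees of freedom). The sum without Adar was added after the data were seen.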

Additional observations from a re-analysis of the deposited data

How the results depend on the processing

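The main counts were 1540 genes higher and 1183 lower, 4 sensor genes higher and 11 and 9 other sensing genes higher and lower. Without a filter on low counts these 5 counts were 1, 2, 0, 0 and 0, with DESeq2's Wald test 477, 276, 0, 7 and 1, and at an adjusted p under 0.01 they were 856, 547 and 2, with 2 other sensing genes lower. Leaving out 1 library gave 0 to 0 genes in each count by edgeR's quasi-likelihood test, while 2652 to 2767 had an unadjusted p below 0.05; the prior degrees of freedom were then 1.51 to 1.67, against 14.1, and the fit gives a group's single library the spread of the other pair. With each pair summed and an assumed coefficient of variation of 0.2 the counts were 43, 6, 1 (Ifih1), 2 and 0, and at 0.4 they were 6, 1, 0, 0 and 0. Scaling by library totals left 5 other sensing genes lower. For the tests and filters the cause was not tested. The fit with a replicate block called 1740 genes higher and 1437 lower and the same count of 4 sensor genes. The GC and length correction ended the call of Adar and turned Pld3 to -0.15 (adjusted p = 0.0213). The 2-fold count of 3 sensor genes was 2 to 3 with 1 library left out, and the summed ratio of 2.19 kept within its interval in every alternative run. At this depth Mb21d1, Tmem173, Tlr3 and Zbp1 cannot be compared.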
